A study of Mus musculus with 9 samples.

Results

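The BCL2 family genes that govern survival and death at the mitochondrial membrane were followed in matured mouse oocytes. The set held 10 genes of the 22526 in the deposited table, chosen by symbol: the survival genes Bcl2l10, Bcl2, Bcl2l1, Mcl1 and Bcl2l2, the pore-forming genes Bax and Bak1, and the BH3-only genes Bid, Bcl2l11 and Bbc3. All 10 symbols matched 1 row each. Messenger RNA had been measured in 9 libraries of metaphase II oocytes from ICR mice, an outbred strain. There were 3 libraries from young mice, 3 from aged mice and 3 from a group given nicotinamide mononucleotide (NMN), a precursor of the coenzyme NAD. The labels give neither the ages in the young and aged groups, nor the age of the NMN group's mice, nor the dose of NMN. The question behind the design is what maternal age does to the oocyte and how far NMN offsets it.

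Proteins of this family decide whether the outer mitochondrial membrane stays intact. Survival members hold the pore formers BAX and BAK in check, and BH3-only proteins bind survival members or activate the pore formers directly. Once pores open, cytochrome c leaves the mitochondrion and caspases are activated. In the ovary these proteins set how many oocytes survive. Bcl2l10, whose mRNA is known to be abundant in oocytes, is grouped here with the survival members, and its action was not tested.

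Levels are given as FPKM, in which reads are divided by the length of the transcript and the size of the library. Levels of different genes are set side by side as if each mRNA was captured alike, which was not tested. Depth was 16280000 to 19250000 reads per library, as estimated from the low values, and 3 reads of a 2 kb transcript correspond to 0.0779 to 0.0921 FPKM. The number of oocytes per library is not given, so fewer intact oocytes and less RNA per oocyte cannot be told apart, and since no source ties libraries to separate animals, each p-value reflects library-to-library spread that may be technical in part. All 13 oocyte markers fixed for this work, among them Gdf9 and the zona pellucida genes, were above 0 in all 9 libraries and summed to 12357 to 16323 FPKM in young, 16819 to 19060 in aged and 14833 to 18768 in NMN libraries. One of them, Zp3, passed the test described below, with a log2 change of 1.10 in aged against young (limma adjusted p = 0.0410), and missed it under 12 of 19 alternative settings (adjusted p 0.0090 to 0.164). The next by p, Ooep, had 0.95 (adjusted p = 0.141). Of 12 markers of cumulus and granulosa cells, the somatic cells around the oocyte, 6 were listed at 0 in 8 libraries and above 0 in aged replicate 2 alone. The 12 summed to 21.9 FPKM in aged replicate 2 and to 3.47 to 7.37 FPKM in the other 8, where Cyp19a1 was the only one of them above 0 in every library (log2 change of aged against young -0.63, limma adjusted p = 0.115). Markers of blood and immune cells (2 of 8 in the table) summed to 0.382 to 2.51 FPKM and those of oviduct epithelium (5 of 5, with Epcam tested, 0.23 in aged against young, limma adjusted p = 0.664) to 0.722 to 2.16 FPKM.

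The 10 mRNAs spanned the range from nearly the most abundant of the oocyte to the detection limit. Their order by mean over the 9 libraries was Bcl2l10 (12598 FPKM), Bcl2l1 (26.6), Bax (3.44), Bcl2l11 (2.65), Bid (0.364), Mcl1 (0.340), Bcl2l2 (0.268), Bbc3 (0.0094), Bak1 (0.0055) and Bcl2 (0.0043). Bcl2l10 was above Bcl2l1, Bcl2l1 above Bax, and Bcl2l11 above Bid in 9 of 9 libraries without overlap of their ranges. Bax and Bcl2l11 overlapped, with Bax the higher in 4 of 9 libraries, and Bid, Mcl1 and Bcl2l2 overlapped one another. The lowest 3 were at 0 in most libraries and cannot be ordered.

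**Figure D1:**
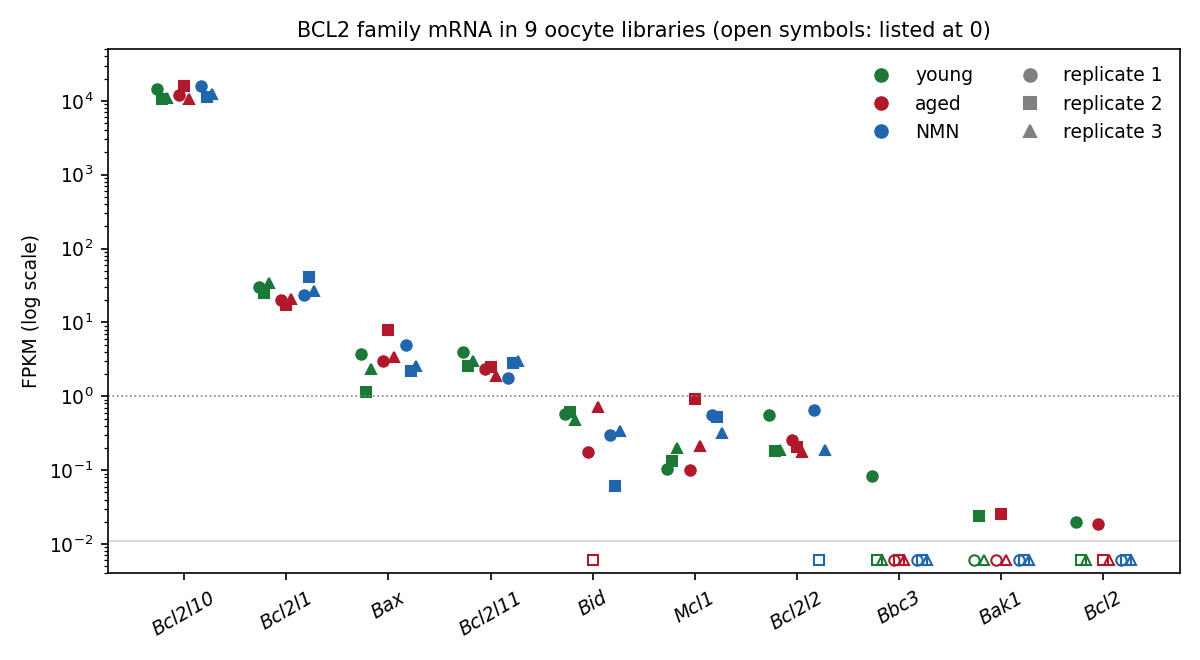
FPKM of the 10 BCL2 family genes on a log axis, 1 symbol per library, coloured by group and shaped by replicate number; open symbols at the bottom are values listed at 0 and the dotted line marks 1 FPKM. Bcl2l10 lies at 10514 to 15910 FPKM in every library, the next member, Bcl2l1, at 17.2 to 41.4 FPKM, and 6 members lie below 1 FPKM throughout.

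Bcl2l10 (ENSMUSG00000032191, chromosome 9) dominated the family. It was the most abundant mRNA of all genes in aged replicate 2 and NMN replicate 1 and the second in the other 7 libraries. Taking its single annotated transcript of 1220 nt, it accounted for 1.28 to 1.94% of all reads, or 217000 to 323000 reads per library. It made up 99.6 to 99.9% of the summed FPKM of the 5 genes grouped here as survival genes. It held 270.3 to 925 times the FPKM of Bcl2l1 in the same library.

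Because a value of this size could borrow reads from relatives, the coding sequences were compared. The stretch shown is that of the BH1 region, which together with BH2 and BH3 forms the groove that binds BH3 helices. It was read from the GENCODE M21 transcripts, 42 bases each, and the 9 capitals mark the core codons of BH1. For Bcl2l10 the place was found by local alignment of the translated reading frames, which gave the same place for 5 of its 6 multi-domain relatives.
Bcl2l10: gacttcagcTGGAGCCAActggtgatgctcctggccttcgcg
Bcl2l1: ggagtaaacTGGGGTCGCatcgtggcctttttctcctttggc
Mcl1: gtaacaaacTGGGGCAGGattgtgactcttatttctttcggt
Bax: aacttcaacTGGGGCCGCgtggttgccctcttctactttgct
The Bcl2l10 stretch shares 20 of 42 bases with Bcl2l1, 20 with Bcl2, 21 with Mcl1, 24 with Bcl2l2, 26 with Bax and 29 with Bak1. Bcl2l1 shares 27 to 29 with each of the other 5. In the 9 core bases Bcl2l10 has 5 in common with Bcl2l1, against 6 for Mcl1 and 8 for Bax. Over whole transcripts, 0% of the 50-base words of Bcl2l10, Bcl2l1, Mcl1 and Bbc3 occur in any other annotated gene. The level of Bcl2l10 is therefore not shared with a near-identical copy in this annotation.

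Its level differed little between the groups. Young libraries had 14259, 10514 and 10824 FPKM, aged libraries 11945, 15910 and 10675 FPKM, and NMN libraries 15720, 11184 and 12355 FPKM (replicates 1 to 3). The 3 groups overlapped fully, and in each of them 1 library lay above the other 2. Group means were 11866 ± 2078 in young, 12843 ± 2731 in aged and 13086 ± 2354 FPKM in NMN libraries (SD, n = 3). The log2 change was 0.09 for aged against young (limma 95% interval -0.34 to 0.52, adjusted p = 0.847), 0.01 for NMN against aged (-0.42 to 0.44, adjusted p = 0.992) and 0.10 for NMN against young (-0.33 to 0.53, adjusted p = 0.893). The labels tie replicate numbers to no animal or day. NMN and young libraries of the same number were taken as pairs only from correlations within these data. Bcl2l10 was higher in NMN in 3 of 3 of these inferred pairs. With the replicate block fitted on these 6 libraries the difference was 0.10 ± 0.05 (SE, 95% interval -0.03 to 0.23, limma adjusted p = 0.343). Replicate 1 was the highest library of both groups, so pairing by number sets high against high. The count of pairs and this narrower interval rest on pairs inferred from the same data and are no independent support. The sign of these small differences turned under other settings, for example to -0.039 for aged against young without aged replicate 2.

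**Figure D2:**
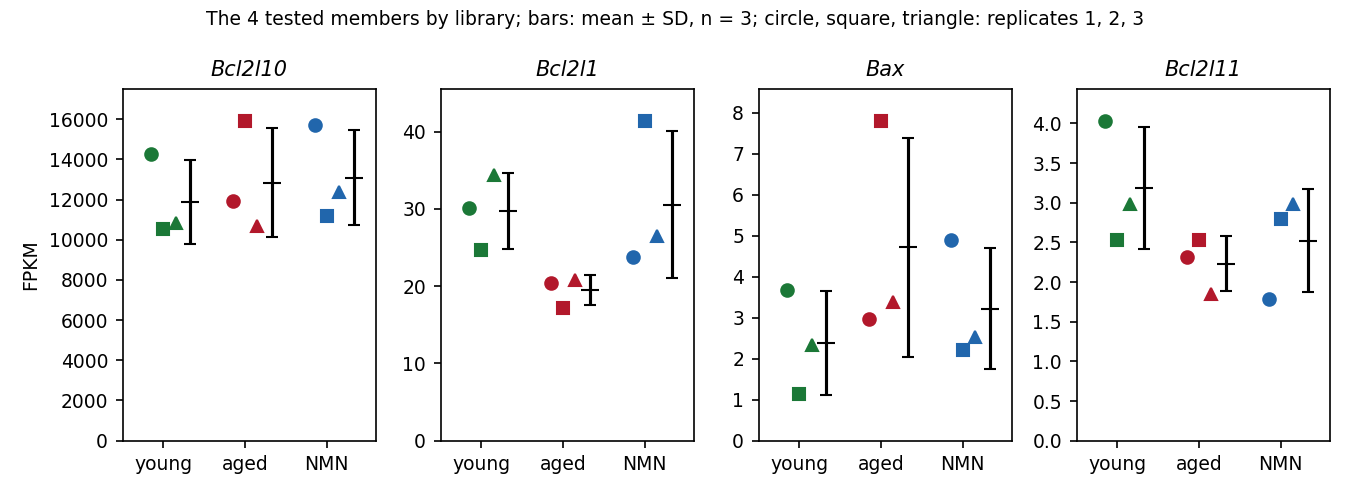
FPKM per library of the 4 members that passed the filter on low values, with group means ± SD beside the points (n = 3, linear axes from 0). Bcl2l1 is lower in all 3 aged libraries (17.2 to 20.9 FPKM) than in the young (24.7 to 34.4) and NMN libraries (23.7 to 41.4), and Bcl2l10 overlaps in all groups.

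Only 4 members, Bcl2l10, Bcl2l1, Bax and Bcl2l11, had at least 1 FPKM in at least 3 libraries and were tested. The other 6 did not pass this filter. No member passed the test in any comparison (limma on log2(FPKM + 1), Benjamini-Hochberg adjusted p under 0.05 over 9168 genes). In aged against young 0 of 4 passed, where 2.17% of all tested genes did. In NMN against aged 0 of 4 passed beside 0.218% of all genes, and in NMN against young 0 of 4 beside 0.0327%. At an unadjusted p under 0.05 there was 1 member in aged against young (18.2% of all genes) and 1 in NMN against aged (11.1%), Bcl2l1 in both cases, and 0 in NMN against young (8.29%). The median log2 change of the 4 was -0.14, 0.05 and 0.03 in these comparisons, beside -0.01, 0.0034 and 0.01 over all tested genes. The first 2 comparisons share the aged libraries, and the third shares a group with each.

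Bcl2l1 (ENSMUSG00000007659, chromosome 2), which encodes BCL-XL, was the second survival gene in abundance. Young libraries had 30.1, 24.7 and 34.4 FPKM, aged libraries 20.4, 17.2 and 20.9 FPKM, and NMN libraries 23.7, 41.4 and 26.5 FPKM. All 3 aged libraries lay below all 3 young and all 3 NMN libraries, while young and NMN overlapped. The means were 29.7 ± 4.88, 19.5 ± 1.99 and 30.5 ± 9.50 FPKM (SD, n = 3). The log2 difference was -0.60 ± 0.24 for aged against young (SE, 95% interval -1.14 to -0.05, limma adjusted p = 0.231) and 0.56 ± 0.24 for NMN against aged (0.02 to 1.11, adjusted p = 0.432). Between NMN and young it was -0.03 ± 0.24 (-0.57 to 0.51, adjusted p = 0.976). The adjusted p missed the threshold in each comparison, and the two-sided exact permutation p was 0.1 in the first 2, the smallest that 3 against 3 can give. The difference between NMN and aged leaned on NMN replicate 2, without which it was 0.31 (limma adjusted p = 0.753). Lower without overlap in aged than in young were 11.2% of all tested genes, and higher without overlap in NMN than in aged were 9.09%. In the opposite directions the numbers were 1159 and 597 of 9168 genes.

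The remaining survival genes were scarce. Mcl1 (ENSMUSG00000038612), a short-lived survival protein that oocytes depend on, had 0.105, 0.135 and 0.198 FPKM in young, 0.101, 0.917 and 0.211 FPKM in aged, and 0.557, 0.517 and 0.319 FPKM in NMN libraries. With its longest annotated transcript of 3418 nt these values fell on whole reads, within 0.02 reads, in 9 of 9 libraries. They correspond to 6, 8 and 13 reads in young, 6, 51 and 12 in aged, and 32, 33 and 18 in NMN libraries. All 3 NMN libraries lay above all 3 young libraries (two-sided exact permutation p = 0.1). Of the 9168 tested genes, all above the filter that Mcl1 missed, 16.6% did not overlap in this comparison, 878 of them higher and 641 lower in NMN. The share among genes as low as Mcl1 was not taken. Exact 95% Poisson intervals cover counting error only. Those of the nearest 2 libraries overlap, with 6.9 to 22.2 reads for the highest young and 10.7 to 28.4 for the lowest NMN library. Those of NMN replicates 1 and 2 (21.9 to 45.2 and 22.7 to 46.3) lay above those of young replicates 1 and 2 (2.2 to 13.1 and 3.5 to 15.8). Such overlap is no test of the groups. Without the filter the limma test gave a log2 change of 0.34 (95% interval -0.10 to 0.79, adjusted p = 0.840), on a scale that understates changes at such low values. The highest value, 51 reads, was that of aged replicate 2, the library with cumulus cell markers, and the part of those cells in it was not tested. In the 3 NMN libraries, as in the 3 young ones, 6 of the 12 markers were listed at 0. All 12 summed to 3.47 to 4.79 FPKM in NMN and 5.64 to 7.37 FPKM in young libraries. Their bearing on Mcl1 was not tested.

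Bcl2l2 (ENSMUSG00000089682), which encodes BCL-W, had 0.563, 0.180 and 0.186 FPKM in young, 0.259, 0.207 and 0.175 FPKM in aged, and 0.653, 0 and 0.190 FPKM in NMN libraries. The groups overlapped in every comparison. In the annotation 12.1% of its 50-base words also occur in the overlapping gene Gm20521, so its reads may be split. Bcl2 itself (ENSMUSG00000057329), the founding member of the family, was above 0 in 2 libraries only, young replicate 1 (0.0196 FPKM) and aged replicate 1 (0.0189 FPKM). Both values lie below the 3 reads taken as the floor for its longest transcript of 7191 nt (0.0217 to 0.0256 FPKM). A ratio of Bax to Bcl2 mRNA, a common readout of apoptotic balance, therefore could not be formed in these oocytes. In the annotation 5.25% of the 50-base words of Bcl2 also occur in other genes, among them D630008O14Rik on the opposite strand.

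Of the pore formers, Bax was present and Bak1 was not detectable at this depth. Bax (ENSMUSG00000003873, chromosome 7) had 3.68, 1.13 and 2.34 FPKM in young, 2.97, 7.80 and 3.39 FPKM in aged, and 4.90, 2.21 and 2.53 FPKM in NMN libraries. The groups overlapped in all 3 comparisons, and the highest value was again that of aged replicate 2. The means were 2.38 ± 1.28, 4.72 ± 2.67 and 3.21 ± 1.47 FPKM (SD, n = 3). The log2 change was 0.72 ± 0.37 for aged against young (SE, 95% interval -0.09 to 1.53, limma adjusted p = 0.329) and -0.41 ± 0.37 for NMN against aged (-1.23 to 0.40, adjusted p = 0.709). Between NMN and young it was 0.31 ± 0.37 (-0.51 to 1.12, adjusted p = 0.831). Bax was higher in NMN than in young in 3 of 3 pairs inferred from these same data, which is no independent support. With the replicate block on these 6 libraries the interval was -0.13 to 0.75 (limma adjusted p = 0.395). This difference was 0.012 without young replicate 2, 0.05 without NMN replicate 1 and 0.57 without young replicate 1. Without aged replicate 2 that of aged against young was 0.39 and that of NMN against aged -0.09, and without young replicate 2 that of aged against young was 0.43. In the annotation 8.51% of the 50-base words of Bax also occur in Gm45808.

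Bak1 (ENSMUSG00000057789), the partner of Bax in most tissues, was above 0 in young replicate 2 (0.0239 FPKM) and aged replicate 2 (0.0255 FPKM) only. Both values are close to 1 read of its longest transcript and below the floor of 3 reads (0.0653 to 0.0772 FPKM). Bax therefore made up 97.9 to 100% of the summed FPKM of the pore formers. In the annotation 17.1% of the 50-base words of Bak1 also occur in Ggnbp1 on the opposite strand.

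**Figure D3:**
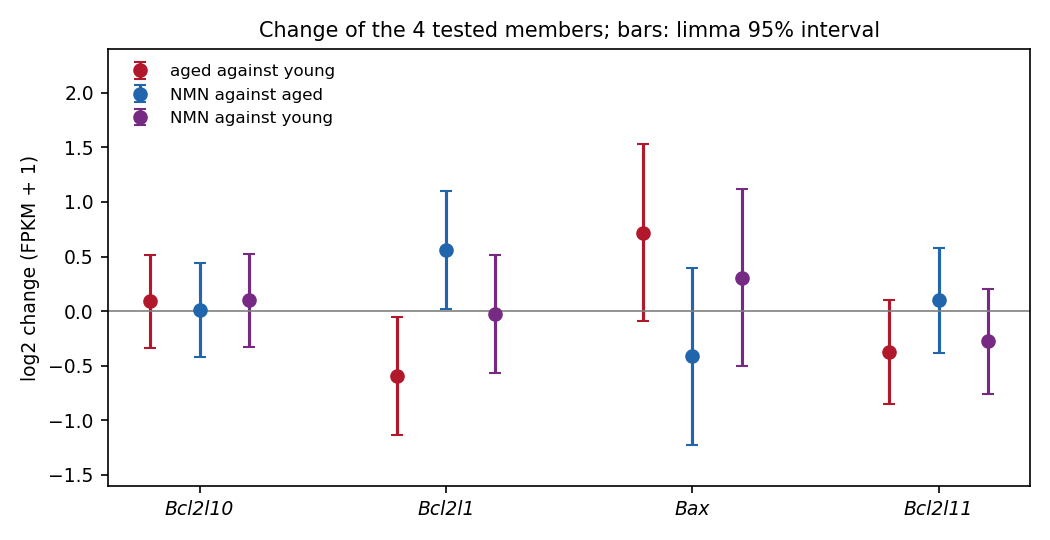
Log2 change of the 4 tested members in the 3 comparisons, with the limma 95% interval as bars (n = 3 libraries per group). The intervals of Bcl2l1 lie just off 0 in aged against young (-1.14 to -0.05) and in NMN against aged (0.02 to 1.11) before any adjustment for multiple tests, and all others include 0.

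Of the 3 BH3-only members, Bcl2l11 was the highest. It encodes BIM, which binds all survival members. Bcl2l11 (ENSMUSG00000027381, chromosome 2) had 4.03, 2.54 and 2.99 FPKM in young, 2.32, 2.53 and 1.85 FPKM in aged, and 1.78, 2.80 and 2.98 FPKM in NMN libraries. The highest aged library lay just below the lowest young one, and NMN overlapped with both. The log2 change was -0.38 ± 0.22 for aged against young (SE, 95% interval -0.85 to 0.10, limma adjusted p = 0.392), 0.10 ± 0.22 for NMN against aged (-0.38 to 0.58, adjusted p = 0.910) and -0.28 ± 0.22 for NMN against young (-0.76 to 0.20, adjusted p = 0.780). With Bcl2l1, it was 1 of 2 tested members whose aged and young libraries did not overlap, and both were lower in the aged group. Of all 9168 tested genes, 1026 (11.2%) were lower and 1159 higher in aged than in young without overlap.

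Bid (ENSMUSG00000004446), which links death receptors to mitochondria after cleavage by caspase 8, had 0.573, 0.616 and 0.483 FPKM in young, 0.179, 0 and 0.727 FPKM in aged, and 0.301, 0.0603 and 0.341 FPKM in NMN libraries. The aged libraries held both the lowest and the highest value of the 9. The NMN libraries lay below all young ones (two-sided exact permutation p = 0.1, the smallest possible). Of the 9168 tested genes, all above the filter that Bid missed, 16.6% did not overlap in this comparison, 641 of them lower in NMN and 878 higher. Without the filter the log2 change of NMN against young was -0.36 (limma adjusted p = 0.840). Its exons overlap those of Bcl2l13 on the opposite strand. A strand-specific count is not stated, so reads of that overlap, 16.4% of its 50-base words, cannot be assigned to either gene. Bbc3 (ENSMUSG00000002083), which encodes PUMA, the p53 target that drives the loss of oocytes after DNA damage, was at 0.0845 FPKM in young replicate 1, below its floor of 0.0859 to 0.102 FPKM, and listed at 0 in the other 8 libraries.

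Set against each other within a library, the FPKM of Bcl2l1 were 8.18, 21.8 and 14.7 times those of Bax in young, 6.87, 2.21 and 6.15 times in aged, and 4.84, 18.7 and 10.5 times in NMN libraries. The 3 aged ratios lay below the 3 young ones, by a narrow margin at the nearest pair, and NMN overlapped with both. The ratio combines the 2 differences above and has no test of its own. Counting Bcl2l10 as well, the survival genes summed to 10539 to 15928 FPKM, and to 18.3 to 41.9 FPKM without it. The pore formers summed to 1.16 to 7.82 FPKM and the 3 BH3-only genes to 2.09 to 4.69 FPKM. The BH3-only gene Bik, outside the 10 members, had 11.3 to 28.7 FPKM. These mRNA sums over listed genes give no balance of survival and death, which was not tested.

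Bcl2l10 and Bax shared their high libraries. Aged replicate 2, NMN replicate 1 and young replicate 1 held the 3 highest values of both genes. Likeness was then measured as the correlation of log2(FPKM + 1) over the 9 libraries. It was taken among 2953 other tested genes with a mean of at least 10 FPKM and an established symbol. It is a description of these libraries only, and genes picked this way share the member's pattern by choice. The genes most like Bcl2l10 were Whamm (r = 0.980), an activator of actin branching, Ggct (r = 0.976), an enzyme of glutathione turnover, and Iqgap2 (r = 0.972), a cytoskeletal scaffold. Their levels ran from 5.24 to 22.2, from 187 to 335 and from 18.8 to 32.4 FPKM. Without the 2 libraries farthest from the median of Bcl2l10, aged replicate 2 and NMN replicate 1, r was 0.975, 0.939 and 0.985.

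The genes most like Bcl2l1 were March6 (r = 0.948), a ubiquitin ligase of the endoplasmic reticulum, Nup50 (r = 0.947), a nucleoporin, and St6gal1 (r = 0.937), a sialyltransferase. All 3 aged values of Nup50 (28.3, 30.4 and 31.0 FPKM) and of St6gal1 (8.02, 7.67 and 8.26 FPKM) lay below those of the other 6 libraries, as for Bcl2l1. This follows from how they were picked and is no separate result. Without NMN replicate 2 and aged replicate 2, r was 0.847, 0.882 and 0.979. Those most like Bax were Tmf1 (r = 0.947), a Golgi protein, Ptma (r = 0.944), which encodes prothymosin alpha, and Tesc (r = 0.932), a calcium-binding protein, and all 3 were highest in aged replicate 2. Without aged replicate 2 and young replicate 2, the farthest from the median of Bax, r was 0.801, 0.831 and 0.927.

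**Figure D4:**
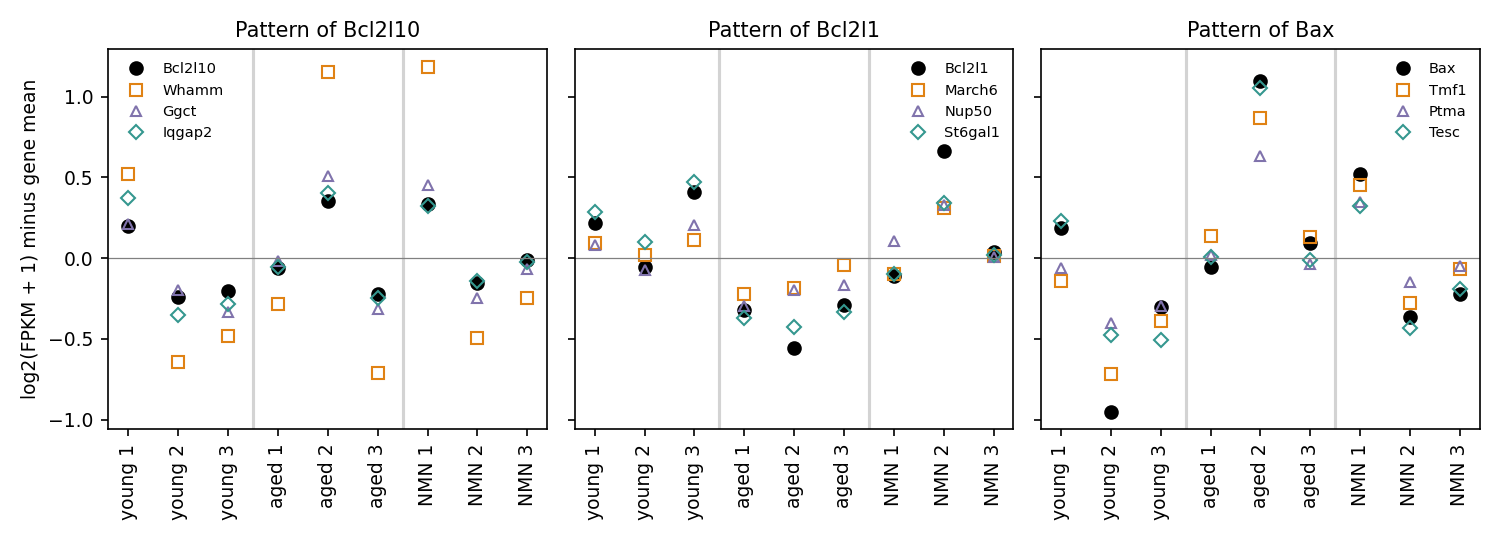
Log2(FPKM + 1) minus the gene's mean for Bcl2l10, Bcl2l1 and Bax (filled) and the 3 genes most like each (open), by library. Bcl2l10 and its 3 genes are highest in young replicate 1, aged replicate 2 and NMN replicate 1, and Bcl2l1 lies below its mean in all 3 aged libraries.

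The wider cell death pathway was read from 8 further lists of 74 genes, of which 67 were in the table and 45 passed the filter. None of the 45 passed the test in any comparison (limma adjusted p under 0.05), and 7, 3 and 1 had an unadjusted p under 0.05 in the 3 comparisons, taken in the order above, beside 18.2%, 11.1% and 8.29% of all tested genes (1664, 1022 and 760 of 9168). The median log2 change of the 45 was -0.0046, -0.02 and -0.02, beside -0.01, 0.0034 and 0.01 over all tested genes. Without overlap, 4 of the 45 were higher and 6 lower in aged against young, beside 1159 and 1026 of all 9168. In NMN against aged the numbers were 1 and 6 (833 and 597 of all), and in NMN against young 6 and 5 (878 and 641). Of the other BCL2 family genes 4 of 15 were tested, and Bik, a BH3-only gene, stood at 13.6 ± 2.45, 21.9 ± 7.44 and 20.3 ± 8.74 FPKM in young, aged and NMN libraries (SD, n = 3). That level exceeded those of all 3 BH3-only members above. Bcl2l13, a mitophagy receptor, had a log2 change of -0.58 in aged against young (limma adjusted p = 0.376).

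Downstream of the mitochondria, 9 of 14 apoptosome and caspase genes were tested, with a median log2 change of -0.03 in aged against young. Casp2, an initiator caspase linked to oocyte death, was at 2.11 ± 0.38, 1.11 ± 0.53 and 1.73 ± 0.09 FPKM in young, aged and NMN libraries. Dffa, the inhibitor of the caspase-activated DNase, was at 1.88 ± 0.21, 0.78 ± 0.62 and 2.13 ± 0.82 FPKM. In aged against young their log2 changes were -0.59 and -0.76 (limma adjusted p = 0.196 and 0.224), and the lowest value of both was in aged replicate 2. Apaf1, the scaffold of the apoptosome, is added after its values were seen. It stood at 4.47 ± 0.46, 4.53 ± 1.17 and 2.60 ± 0.66 FPKM (SD, n = 3), with all 3 NMN libraries below the other 6. Its log2 change was -0.63 in NMN against aged and -0.65 in NMN against young (limma adjusted p = 0.295 and 0.405). Lower without overlap in NMN were 597 of all 9168 tested genes against aged and 641 against young. Of the inhibitors of apoptosis 6 of 6 were tested, with a median of 0.21. Birc5, which encodes survivin, a protein of the chromosomal passenger complex too, had 69.4, 60.7 and 64.9 FPKM in young, 77.9, 174 and 92.7 FPKM in aged and 119, 84.4 and 73.9 FPKM in NMN libraries. Its young libraries lay below the other 6 (log2 change of aged against young 0.71, limma adjusted p = 0.200). The numbers of all genes without overlap are given above. Xiap, a direct caspase inhibitor, was at 0.779 ± 0.066, 1.19 ± 0.77 and 1.16 ± 0.27 FPKM.

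Among partners at the mitochondrial and endoplasmic reticulum membranes, 8 of 12 were tested, with a median of 0.08. Vdac1, the main channel of the outer membrane, had 6.19, 6.80 and 6.98 FPKM in young, 9.43, 12.5 and 9.69 FPKM in aged and 8.67, 7.80 and 8.63 FPKM in NMN libraries, and the 3 groups did not overlap. Its log2 change in aged against young was 0.57 ± 0.17 (SE, 95% interval 0.20 to 0.93, limma adjusted p = 0.115). Tmbim6, known as BAX inhibitor 1, stood at 35.3 ± 3.58, 53.5 ± 8.85 and 47.8 ± 6.64 FPKM, with young below the other 6 libraries (log2 change of aged against young 0.56 ± 0.18, limma adjusted p = 0.145). Higher without overlap than in young were 1159 of all 9168 tested genes in aged and 878 in NMN libraries. Of the genes that control MCL1 turnover 6 of 6 were tested, with a median of 0.13, and those with the smallest p were Tpt1 (log2 change 0.45) and the ubiquitin ligase March5 (-0.30), with limma adjusted p = 0.431 for both.

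In the p53 family list 7 of 9 genes were tested, with a median of -0.26. Foxo3, the transcription factor that keeps primordial follicles dormant, had 7.28, 5.50 and 4.82 FPKM in young, 4.58, 4.45 and 3.98 FPKM in aged and 9.42, 8.91 and 6.71 FPKM in NMN libraries. All 3 aged libraries lay below the other 6, and the log2 change of NMN against aged was 0.78 ± 0.20 (SE, limma adjusted p = 0.181). Lower without overlap in aged than in young were 11.2% of all tested genes, and 9.09% were higher in NMN than in aged. Mdm4, a p53 inhibitor, was at 203 ± 11.4, 172 ± 18.01 and 179 ± 15.2 FPKM. Of the death receptor arm only Ripk1 of 7 genes was tested (-0.0046 in aged against young). Of 5 genes of spindle assembly and maturation with which Bcl2l10 has been linked in oocytes 4 were tested, with a median of -0.01. Aurka was at 194 ± 10.4, 134 ± 31.7 and 167 ± 15.5 FPKM, with a log2 change of -0.58 in aged against young (limma adjusted p = 0.194), and Ccnb2 at 11.7 ± 2.09, 18.5 ± 1.09 and 14.2 ± 2.76 FPKM, with 0.62 (adjusted p = 0.134).

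**Figure D5:**
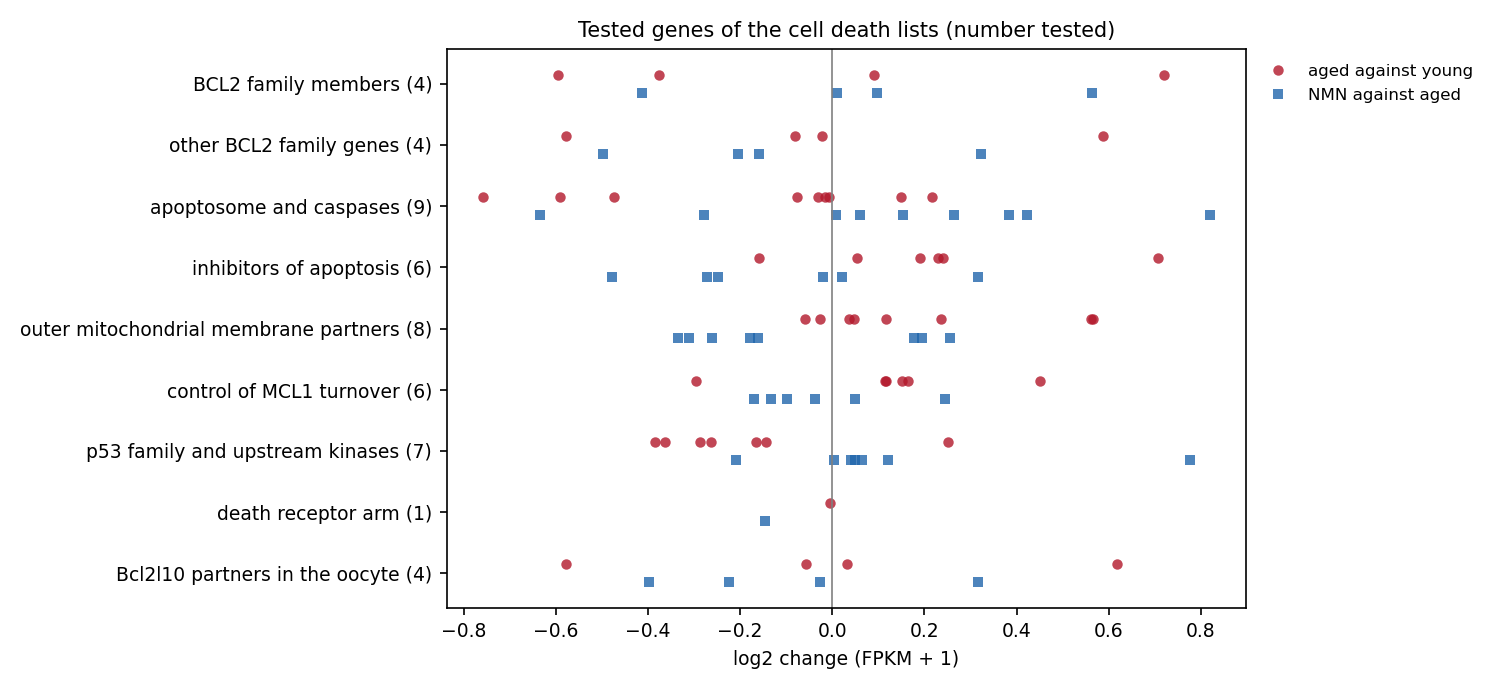
Log2 change of every tested gene of the BCL2 family and of 8 further cell death lists, for aged against young (circles) and NMN against aged (squares), with the number tested in brackets. Each symbol is 1 gene, all lie between -0.76 and 0.82, and none passed the test.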

How the data were processed

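The values deposited by the authors are FPKM for 22526 genes in 1 table, although its name speaks of raw counts: they are fractional and sum to 300369 to 329359 per library. Libraries were made by Smart-seq2, per the labels' protocols, and Bowtie2 2.2.5, RSEM and the build mm9 are named in the submitters' processing notes, without their roles or annotation. Symbols were matched for 99.83% of identifiers. GENCODE M21, on a later build, served for names, transcript lengths and sequences, and no coordinates are given. Of the promoter entries in the RefSeq table none was printed, and Bcl2l10 has no entry there.

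Depth was estimated from 2659 genes with 1 annotated transcript over 1500 nt, whose values below 20 reads fell on whole multiples of 1 step, within 0.02 reads, for 96.16 to 97.74%. Same-group libraries differed by more than sampling noise (chi-square per degree of freedom 19.2 to 139).

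Library scale was set by a trimmed mean of ratios that drops 30% by ratio and, by level, 5%. The filter asked for 1 FPKM in 3 libraries and left 9168 genes, whose log2(FPKM + 1) was fitted with limma 3.58.1 under R 4.3.3 (variance trend, robust moderation, 9 libraries, no covariates). The steps were tested on simulated data with 200 of 9168 genes changed. At a log2 change of 1, 34.5% were recovered in aged against young, 41.5% in NMN against aged and 30.5% in NMN against young. At a log2 change of 2 these were 93, 87.5 and 88.5%. Of the genes called, 2.82 to 6.74% were unchanged ones. A change of log2 1 or less in a member can therefore be missed. Replicate numbers were taken as pairs where all 3 correlations of deviations exceeded 0.1: this held between NMN and young (0.496, 0.119 and 0.143). It did not hold between aged and young (-0.338, -0.265 and 0.314), nor between NMN and aged (-0.372, -0.356 and 0.203). The members and lists were chosen with earlier results of these data known. In the other lists, called genes and the 2 with the smallest p in aged against young per list are named, and for the 3 most abundant tested members the 3 most alike genes.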

Additional observations from a re-analysis of the deposited data

How the results depend on the processing

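The count of members called was 0 in each of the 3 comparisons under all 19 alternatives (pseudocounts, filters, scalings, 2-group fits, variance models, library weights and each library left out), and so ranged from 0 to 0 without any 1 library. With the replicate block it was 0 as well, also when the block was fitted on NMN and young alone, an alternative chosen after seeing the data (17 of all genes called). At a minimum of 5 FPKM only Bcl2l10 and Bcl2l1 were tested, so Bax and Bcl2l11 have no value there. The log2 change of Bcl2l1 in aged against young ran from -0.71 to -0.48, with adjusted p from 0.140 to 0.548, and in NMN against aged from 0.31 to 0.74 (adjusted p from 0.296 to 0.753). That of Bax in aged against young ran from 0.39 to 0.98 (adjusted p from 0.185 to 0.657). That of Bcl2l11 ran from 0.0044 to 0.27 in NMN against aged and from -0.39 to -0.11 in NMN against young, and that of Bax in NMN against young from 0.012 to 0.57. Signs turned only for differences near 0, and the cause was not tested. Bcl2l10 in NMN against aged was -0.013 with median ratio scaling and -0.0020, -0.11 and -0.11 without aged replicate 1, aged replicate 3 or NMN replicate 1. Leaving out 1 library gave -0.039 (without aged replicate 2) to 0.22 for Bcl2l10 in aged against young and -0.022 (without NMN replicate 1) to 0.22 in NMN against young. Bcl2l1 in NMN against young was 0.0079 with values as deposited and 0.08, 0.14 and 0.05 without young replicate 3, NMN replicate 1 or NMN replicate 3, in a range down to -0.28 without NMN replicate 2. The number of all genes called varied far more, from 27 to 861 around 199 in aged against young, from 5 to 150 around 20 in NMN against aged and from 1 to 64 around 3 in NMN against young, highest with library quality weights, and was 64, 16 and 1 with the replicate block. Scaling moved the median of all genes by less than 0.1. For the 6 members below 1 FPKM, depth and the log2(FPKM + 1) scale limit what can be seen.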
